A study of Rattus norvegicus with 18 samples.

Results

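Hmox1 codes for heme oxygenase 1, and its mRNA is described here across 18 libraries of the rat line H9C2. It is 1 of 32545 genes in the deposited table of normalised expression values (FPKM, fragments scaled by gene length and library size), and it was chosen by its measured values, so its levels are a description with no test. The table lists it as ENSRNOG00000014117, a protein-coding gene on the plus strand at chr19:14508616-14515456 of the rat build Rnor 6.0, with a gene length of 1566 bases. H9C2 is an established line derived from embryonic rat heart, and the study asked what microsecond pulsed electric fields do to such cells. The line was measured in 6 groups of 3 libraries. Group P received 50 µmol/L PE for 48 h, an agent that the labels give by that abbreviation alone. Groups P-ES10 and P-ES50 received the same PE and then 10 or 50 pulses of 100 µs at 1500 V/cm. Group NC was untreated, and groups ES10 and ES50 received 10 or 50 such pulses with no PE. All 18 libraries come from the same line, and the labels do not say whether the 3 libraries of a group came from separate cultures, so p-values measure the spread between these libraries, which may be technical.

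Heme oxygenase 1 is the inducible enzyme that opens the heme ring and releases biliverdin, carbon monoxide and iron. Its gene is held down by the repressor BACH1 and switched on by the factor NRF2, and both bind the same DNA elements together with a small MAF partner. KEAP1 marks NRF2 for destruction until oxidants or electrophiles disturb it. In heart cells the gene is known as a marker of oxidative and heme stress.

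The libraries held 14004929 to 17247201 reads on genes. Reads of the mitochondrial genome made up 46.7% to 49.6% in P-ES50 and 91.4% to 92.9% in ES50, against 5.41% to 14.0% in the other 4 groups. ES50 libraries therefore held 1230554 to 1466851 reads on nuclear genes. The cell type label is myocardium, yet 2 of 8 heart muscle markers reached 1 FPKM in 3 libraries. The 6 fibroblast markers summed to 1637 to 4271 FPKM. Of them, 4 reached 1 FPKM in 3 libraries, and Pdgfra and Dcn did not. The 4 smooth muscle markers summed to 2121 to 5647 FPKM, and all 4 reached that level. Of 7 skeletal muscle precursor markers 3 reached it, and the 7 summed to 30.7 to 83.7 FPKM. Macrophages are cells with high heme oxygenase 1, and their markers Ptprc and Adgre1 were listed at 0 in all 18 libraries. The 9 macrophage markers summed to 4.19 to 6.25 FPKM in P-ES50, against 8.14 to 9.82 FPKM in P, and to 7.46 to 8.70 FPKM in ES10, against 7.17 to 8.38 FPKM in NC. Cd14 was the largest term of each sum, at 3.43 ± 0.332 FPKM in P-ES50 and 7.57 ± 0.873 in P (SD, n = 3 each). Cd68 averaged 1.21 ± 0.567 FPKM in P-ES50 and 1.09 ± 0.0791 in P. Csf1r averaged 0.364 ± 0.150 FPKM in P, 1.58 ± 0.223 in P-ES10 and 0.568 ± 0.134 in P-ES50, and 1.79 ± 0.155 in ES10 and 0.669 ± 0.0832 in NC.

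Hmox1 went up with the number of pulses in cells that had received PE. Its level was 144, 148 and 154 FPKM in P libraries, 1025, 1009 and 1070 FPKM in P-ES10 libraries, and 1978, 2019 and 2012 FPKM in P-ES50 libraries. The 3 groups with PE did not overlap, and the P-ES50 libraries were the highest of all 18. Without PE the order was another. Hmox1 stood at 326, 321 and 341 FPKM in NC libraries, at 1041, 1185 and 1229 FPKM in ES10 libraries, and at 69.6, 72.8 and 94.0 FPKM in ES50 libraries. All ES10 libraries lay above NC and all ES50 libraries lay below it, so that ES50 was the lowest group of the 6.

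**Figure D1:**
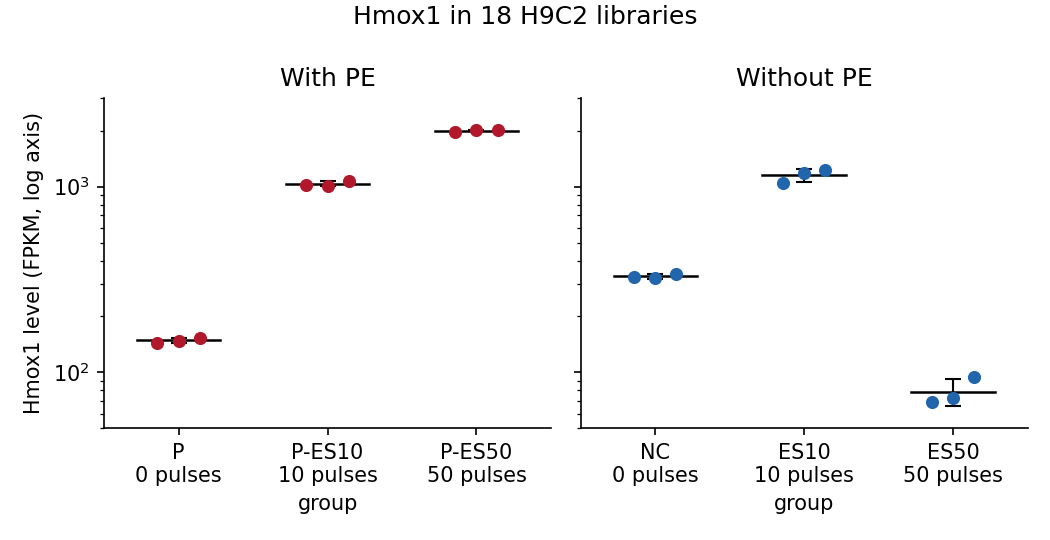
Hmox1 level in FPKM on a log axis in each of 18 libraries, by number of pulses, with PE (left panel) and without PE (right panel). Points are libraries, horizontal lines are group means and bars are the SD (n = 3). With PE the levels go up with pulse number to a mean of 2003 FPKM, whereas without PE the mean is 1152 FPKM after 10 pulses and 78.8 FPKM after 50.

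The means were 149 ± 4.85 FPKM in P, 1035 ± 31.5 in P-ES10 and 2003 ± 21.8 in P-ES50 (SD, n = 3 each). Without PE they were 329 ± 10.3 FPKM in NC, 1152 ± 98.1 in ES10 and 78.8 ± 13.3 in ES50 (SD, n = 3 each). From low to high the order was ES50, P, NC, P-ES10, ES10, P-ES50. Among neighbours in that order, P-ES10 and ES10 overlapped and no other pair did. Of the nuclear genes ranked by FPKM, which is a level per gene length, Hmox1 was in place 7 in every P-ES50 library and in places 274 to 286 in P. It held places 19 to 21 in P-ES10, 16 to 19 in ES10, 105 to 117 in NC and 621 to 844 in ES50.

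Relative to its own control, the mean FPKM was 13.5 ± 0.268-fold higher in P-ES50 than in P and 6.96 ± 0.18-fold higher in P-ES10 than in P (ratio of means ± SE). Without PE it was 3.50 ± 0.183-fold higher in ES10 than in NC and 4.18-fold lower in ES50 than in NC. PE without pulses gave a mean 2.21-fold lower in P than in NC. On the scale of log2(FPKM + 1) these differences were 3.74, 2.79, 1.80, -2.06 and -1.14. Set directly against each other, P-ES50 was 1.94 ± 0.0362-fold above P-ES10, 25.4 ± 2.48-fold above ES50 and 6.09 ± 0.116-fold above NC. P-ES10 had 0.899 ± 0.0469 times the level of ES10, with overlapping libraries, so after 10 pulses the levels with PE and without PE were close while the starting levels in P and NC differed.

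The response to pulses differed with PE. The log2 difference after 10 pulses was larger by 0.99 with PE than without, and the log2 difference after 50 pulses was larger by 5.80. After 50 pulses all 3 P-ES50 libraries lay above every P library, whereas all 3 ES50 libraries lay below every NC library. These contrasts were among those by which the gene was chosen, and no test is attached to them. By the size of its log2 difference among 11917 tested genes, Hmox1 was in place 1 from the top in P-ES10 versus P, place 12 in P-ES50 versus P and place 6 in ES10 versus NC. It was in place 41 from the bottom in P versus NC and in place 409 from the bottom in ES50 versus NC. A pseudocount of 0.1 in place of 1, which lets genes of low level spread further, moved these places to 18, 19, 71, 154 and 1381. For the difference between the responses to 50 pulses it was in place 1, and in place 83 with a pseudocount of 0.1.

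The reads behind these values could be recovered, because FPKM times gene length came out as whole reads (tolerance 0.01) for 100% of genes. Hmox1 drew 6004 to 6387 reads in P, 40630 to 41999 in P-ES10, 44908 to 47285 in P-ES50, 11589 to 13323 in NC, 41715 to 48842 in ES10, and 242, 300 and 346 in the ES50 libraries. The relative counting error was 5.38% to 6.43% in ES50 and as low as 0.452% elsewhere. The coefficient of variation over 3 libraries was 16.9% in ES50 and 8.52% in ES10, above the counting error in both groups. Bulk RNA does not tell fewer cells apart from less RNA per cell.

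The share of reads on mitochondrial genes moves with the pulse groups, so the scaling was varied. Relative to reads on nuclear genes alone, Hmox1 was 13.3-fold higher in P-ES50 than in P and 4.40-fold lower in ES50 than in NC, close to the ratios in FPKM. Relative to all reads, it was 7.22-fold higher in P-ES50 than in P and 48.6-fold lower in ES50 than in NC. On that scale P-ES50 stood 1.11-fold above P-ES10, without overlap, and P-ES50 and ES10 libraries overlapped. The direction of all 5 differences from the own control was the same on the 3 scales. The part of the mitochondrial reads in the sizes was not tested beyond this.

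**Figure D2:**
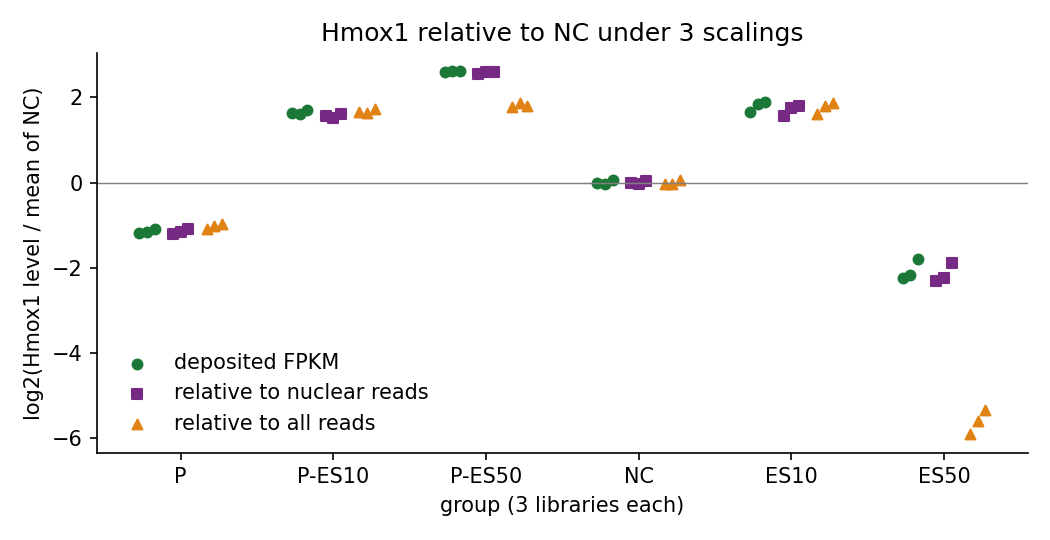
Hmox1 in each library relative to the mean of NC (log2, vertical axis) under 3 scalings, for 6 groups of 3 libraries. Circles (deposited FPKM) and squares (relative to nuclear reads) nearly coincide, and triangles (relative to all reads) lie lower in P-ES50 and far lower in ES50.

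Around Hmox1, 85 genes in 6 lists cover heme degradation, heme synthesis, heme transport and binding, iron handling, the control of NRF2 and BACH1, and NRF2 target enzymes. Of these, 79 were in the table and 70 passed the filter on low values, and Hmox1 is not counted among them. Genes were called at an adjusted p under 0.05 in limma with Benjamini-Hochberg adjustment over all tested genes. In P-ES50 versus P, 31 of the 70 rose and 5 fell, where 14.1% of all tested genes rose and 14.2% fell. The count of 5 became 2 without P library 1, 2 or 3 or without P-ES50 library 3. In P-ES10 versus P, 20 rose and 4 fell, where 13.2% and 9.66% of all genes did. In ES10 versus NC, 13 rose and none fell, where 6.36% and 2.21% of all genes did. An unadjusted p under 0.05 would add 1 gene as lower there, and limma voom on the recovered reads called 4 as lower. In ES50 versus NC, 28 rose and 32 fell, where 31.9% and 40.1% of all genes did, so the shares of the list were near those of all genes in both directions. In P versus NC, 2 rose and 13 fell, where 4.72% and 4.81% of all genes did. The count of 2 became 1 when any 1 of the 6 libraries of that comparison was left out.

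Scaled to all reads, the median log2 difference of all tested genes was -2.43 in ES50 versus NC, -0.77 in P-ES50 versus P and 0.11 in P versus NC, and on the deposited FPKM scale it was -0.13, -0.01 and 0.00. Scaled to all reads, the 70 genes split into 0 higher and 70 lower in ES50 versus NC, 11 higher and 54 lower in P-ES50 versus P, and 16 higher and 9 lower in P versus NC. In P-ES10 versus P the split was 18 and 16, and in ES10 versus NC it was 11 and 3. Of all 11917 tested genes, 34 were then higher and 11471 lower in ES50 versus NC. The split of all genes was 90 and 10461 in P-ES50 versus P and 2431 and 558 in P versus NC. In P-ES10 versus P it was 1521 and 2875, and in ES10 versus NC 920 and 761. The gene values that follow are on the deposited FPKM scale.

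The other genes of heme degradation had far smaller differences than Hmox1 in the comparisons in which Hmox1 was higher. Hmox2, the constitutive heme oxygenase, had group means of 9.25 ± 0.787 FPKM in P, 9.32 ± 0.795 in P-ES10 and 9.77 ± 0.717 in P-ES50, against 9.002 ± 0.487 in NC, 9.01 ± 0.158 in ES10 and 13.5 ± 3.82 in ES50 (SD, n = 3 each). Its log2 difference was 0.07 in P-ES50 versus P, 0.01 in P-ES10 versus P and 0.00 in ES10 versus NC, none of them called. In ES50 it was 16.4, 9.18 and 14.9 FPKM in the 3 libraries, and the difference of 0.50 from NC was called (adjusted p = 0.00592), was lost when NC and ES50 alone entered the limma fit (adjusted p = 0.0822) and was -2.47 when scaled to all reads. Biliverdin reductase B, which turns biliverdin into bilirubin, averaged 58.2 ± 0.850 FPKM in P-ES50 and 39.4 ± 2.28 FPKM in P, and rose by 0.55 (log2, adjusted p = 1.05e-05), although its difference was -0.33 when scaled to all reads. Its log2 differences of 0.03 in P-ES10 versus P and 0.07 in ES10 versus NC were not called. Biliverdin reductase A (Blvra) had uncalled differences of 0.05, -0.19 and 0.11 in P-ES50 versus P, P-ES10 versus P and ES10 versus NC. In ES50 versus NC, Blvrb was higher by 1.61 and Blvra by 0.91, and when scaled to all reads the values were -1.86 and -2.19.

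Por codes for the cytochrome P450 reductase that feeds electrons to heme oxygenase. It fell by 1.86 (log2) in ES50 versus NC (limma, adjusted p = 2.86e-11), with 5.55 ± 1.03 FPKM in ES50 and 22.6 ± 0.0597 in NC. Its log2 difference of -0.11 in P-ES50 versus P was not called. It fell by 0.29 in P-ES10 versus P (adjusted p = 0.0257) and rose by 0.31 in P versus NC (adjusted p = 0.0343), and both calls rest on all libraries. The first was lost without P library 1 or 2 or P-ES10 library 1 or 3 (0.0708 to 0.109), and the second without any NC library or without P library 1 or 2 (0.0931 to 0.128). Of the 4 tested genes of the list, 1 rose and none fell in P-ES50 versus P, 0 rose and 1 fell in P-ES10 versus P, and none was called in ES10 versus NC, where none passed an unadjusted p under 0.05 and voom called 0. Of all tested genes, 14.1% rose and 14.2% fell in P-ES50 versus P, 13.2% and 9.66% in P-ES10 versus P, and 6.36% and 2.21% in ES10 versus NC.

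Heme synthesis showed no call after pulses in any comparison but ES50 versus NC. None of its 12 tested genes was called by limma in P-ES50 versus P, P-ES10 versus P, ES10 versus NC or P versus NC. Of all tested genes, 14.1%, 13.2%, 6.36% and 4.72% rose in those 4 comparisons, and 14.2%, 9.66%, 2.21% and 4.81% fell. At an unadjusted p under 0.05 there were 0, 2, 1 and 0 genes in those comparisons, and voom called 1, 3, 1 and 1. Alas1, the rate-limiting enzyme of the pathway, had log2 differences of 0.19, 0.25, 0.09 and -0.10 there. In ES50 versus NC 7 of the 12 rose and 2 fell, where 31.9% and 40.1% of all genes did. The 7 became 4 without NC library 1 or ES50 library 2, 3 without ES50 library 3, 4 when scaled to nuclear reads, and 0 beside 12 lower when scaled to all reads. On that last scale 34 of all 11917 genes were higher and 11471 lower. Alas1 was 1 of those that fell on the FPKM scale, by 0.53 (limma, adjusted p = 1.65e-04), with 3.09 ± 0.592 FPKM in ES50 and 4.89 ± 0.341 in NC.

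Among heme transporters, Slc48a1, which moves heme out of lysosomes into the cytosol, was called in all 5 comparisons. It averaged 98.3 ± 3.92 FPKM in P-ES50 and 39.9 ± 1.49 FPKM in P, a log2 rise of 1.28 (limma, adjusted p = 1.52e-10). It rose by 0.45 in P-ES10 versus P and fell by 0.39 in P versus NC. The rise of 0.25 in ES10 versus NC (adjusted p = 0.00858) was not called when scaled to nuclear reads or to all reads (0.0833 and 0.0977). In ES50 it stood at 114 ± 9.89 FPKM, against 52.7 ± 0.960 in NC, higher by 1.09 on the FPKM scale and at -2.37 when scaled to all reads. Flvcr2, of the FLVCR transporter family, rose by 0.90 in P-ES10 versus P (adjusted p = 8.32e-04).

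Iron released from heme is stored in ferritin and drives its synthesis. Ftl1, the ferritin light chain, averaged 1638 ± 12.4 FPKM in P-ES50 and 945 ± 64.0 FPKM in P, higher by 0.80 (log2; limma, adjusted p = 5.17e-09) and at -0.10 when scaled to all reads. It rose by 0.36 in P-ES10 versus P (adjusted p = 3.38e-05) and fell by 0.37 in P versus NC (adjusted p = 1.18e-04). The rise of 0.17 in ES10 versus NC (adjusted p = 0.0294) was lost without NC library 1 or 3 or ES10 library 2 or 3 (0.0807 to 0.123). In ES50 versus NC Ftl1 was higher by 1.45, but at -0.17 after quantile normalization and at -2.09 when scaled to all reads. Fth1, the ferritin heavy chain, was listed at 0 in all 18 libraries. Nearly every cell uses it, so the listing is not read as a level. Tfrc, the transferrin receptor that brings iron in, fell by 2.46 in ES50 versus NC (adjusted p = 1.39e-09), and its log2 differences were 0.03 in P-ES50 versus P and 0.13 in ES10 versus NC, neither called. Ncoa4, the receptor that carries ferritin to lysosomes, was higher by 1.82 in ES50 versus NC and at -1.55 when scaled to all reads. Of 14 tested iron genes, 2 rose and 4 fell in P-ES50 versus P, where 14.1% and 14.2% of all genes did. These became 1 and 2 without P library 1, 2 or 3 or P-ES50 library 3, and 0 and 13 when scaled to all reads. On that last scale 90 of all 11917 genes were higher and 10461 lower. Steap3, an iron reductase of endosomes, was among those that fell on the FPKM scale, by 0.60 (adjusted p = 1.29e-04).

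Among the genes that control NRF2 and BACH1, the small MAF genes Maff, Mafk and Mafg had the 3 largest called rises in P-ES50 versus P, P-ES10 versus P and ES10 versus NC. Of 10 tested, 7 rose and none fell in P-ES50 versus P, 6 rose and none fell in P-ES10 versus P, 4 rose and none fell in ES10 versus NC, and none rose and 6 fell in P versus NC. As lower, 0, 1 and 0 genes passed an unadjusted p under 0.05 in the 3 pulse comparisons by limma and 0, 1 and 0 were called by voom. As higher in P versus NC, both counts were 0. Of all genes, 14.1% rose in P-ES50 versus P, 13.2% in P-ES10 versus P and 6.36% in ES10 versus NC, and 4.81% fell in P versus NC. Scaled to all reads, 3 were higher and 6 lower in P-ES50 versus P, where 90 and 10461 of all 11917 genes were. In ES50 versus NC 2 rose and 5 fell, where 31.9% and 40.1% of all genes did. Scaled to all reads all 10 were lower there, as were 11471 of all genes. The 2 were Maff and Rbx1, a ubiquitin ligase subunit named here after its values were seen, at 1.47. Maff averaged 13.0 ± 0.405 FPKM in P, 34.4 ± 0.803 in P-ES10 and 39.0 ± 1.69 in P-ES50, with rises of 1.34 and 1.51 over P. Mafk rose by 1.41 and 1.07, and Mafg by 0.76 and 1.26, in the same 2 comparisons. In ES10 versus NC the rises were 0.62 for Maff, 0.79 for Mafk and 0.45 for Mafg. All 3 fell in P versus NC, with differences of -0.83, -0.61 and -0.47. In ES50 versus NC Mafg fell by 1.35, as Hmox1 was lower, whereas Maff was higher by 1.75 on the FPKM scale and at -1.67 when scaled to all reads.

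Nfe2l2, which codes for NRF2, averaged 67.5 ± 0.662 FPKM in P-ES50 and 43.2 ± 1.07 FPKM in P, higher by 0.63 (limma, adjusted p = 7.77e-08) and at -0.25 when scaled to all reads. Its rise of 0.18 in P-ES10 versus P (adjusted p = 0.00835) was not called when scaled to nuclear reads (0.116) or to all reads (0.275). Its fall of 0.18 in P versus NC (adjusted p = 0.0219) was lost without any NC library or without P library 1 or 3 (0.0511 to 0.0829). Its difference of 0.13 in ES10 versus NC was not called in the main fit. That difference was called without the ES50 libraries (limma, adjusted p = 0.0146) and by voom (0.0112). In ES50 versus NC Nfe2l2 fell by 1.08. Bach1, the repressor, averaged 8.91 ± 0.931 FPKM in P-ES50 and 4.67 ± 0.267 FPKM in P, a rise of 0.80 (adjusted p = 6.14e-04) that was 0.02 and not called when scaled to all reads. It rose by 0.49 in P-ES10 versus P (adjusted p = 0.0209), which was lost without P library 1 or 2 or P-ES10 library 1 or 3 (0.0543 to 0.0953), and fell by 1.49 in ES50 versus NC. In ES10 versus NC the difference of 0.45 for Bach1 was not called in the main fit. It was called without the ES50 libraries (limma, adjusted p = 0.0017), when scaled to all reads (0.00361) and after quantile normalization (0.0342). Keap1 had a log2 difference of -0.01 in ES10 versus NC, not called. Its mean was 7.43 ± 0.266 FPKM in P, 6.16 ± 0.401 in P-ES10 and 8.20 ± 0.896 in P-ES50. Sqstm1, the autophagy receptor p62 that binds KEAP1, averaged 255 ± 5.51 FPKM in P-ES50 and 157 ± 4.68 in P, higher by 0.70 and at -0.20 when scaled to all reads. It rose by 0.49 in P-ES10 versus P and by 0.30 in ES10 versus NC, and fell by 0.37 in P versus NC and by 0.44 in ES50 versus NC.

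Of 23 tested NRF2 target enzymes, 20 rose and none fell in P-ES50 versus P, with a median log2 difference of 0.71 beside -0.01 over all tested genes, of which 14.1% rose and 14.2% fell. Scaled to all reads, 7 were higher and 13 lower, where 90 and 10461 of all 11917 tested genes were. The enzymes split into 10 that rose and 10 that fell in ES50 versus NC (median -0.25), where 31.9% of all genes rose, 40.1% fell and Hmox1 was lower. Scaled to all reads all 23 were lower there, as were 11471 of all tested genes. In P-ES50 versus P no further enzyme passed as lower at an unadjusted p under 0.05, and voom called 0 as lower. In P-ES10 versus P 10 rose and 1 fell (median 0.22), where 13.2% and 9.66% of all genes did. In ES10 versus NC 7 rose and none fell (median 0.17), where 6.36% and 2.21% did. In P versus NC 1 rose and 5 fell (median -0.12), where 4.72% and 4.81% did. The 1 became 0 without P library 3, and the 5 became 3 without NC library 1 or 3 or P library 2, and 9 without the ES50 libraries. In ES10 versus NC the counts of lower genes at an unadjusted p under 0.05 and by voom were also 0. Srxn1, the sulfiredoxin that repairs oxidised peroxiredoxins, averaged 28.5 ± 0.812 FPKM in P, 63.3 ± 3.13 in P-ES10 and 103 ± 6.66 in P-ES50, and rose by 1.12 and 1.82 over P. It rose by 0.79 in ES10 versus NC and fell by 1.55 in ES50 versus NC. Its difference of -0.57 in P versus NC was not called (limma, adjusted p = 0.0514), and was called in a fit without the ES50 libraries (8.56e-06). Txnrd1, the cytosolic thioredoxin reductase, had the same order, with rises of 0.86, 1.30 and 0.56 in P-ES10 versus P, P-ES50 versus P and ES10 versus NC, and differences of -1.34 in ES50 versus NC and -0.28 in P versus NC, both called. The last was -0.17 and not called when scaled to all reads (adjusted p = 0.0503).

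Nqo1, Slc7a11, Akr1b8 and Gclm rose more in P-ES50 versus P than in any of the other 4 comparisons on the FPKM scale. Nqo1, a quinone reductase, averaged 143 ± 0.803 FPKM in P, 137 ± 2.57 in P-ES10 and 356 ± 16.2 in P-ES50. It rose by 1.31 in P-ES50 versus P (limma, adjusted p = 2e-11), while its differences of -0.07 in P-ES10 versus P and 0.13 in ES10 versus NC were not called in the main fit, and P-ES50 was not tested against P-ES10. In P-ES10 versus P Nqo1 was called, at -0.14, when scaled to nuclear reads (limma, adjusted p = 0.0376) and after quantile normalization (0.0286). In ES10 versus NC it was called as higher without the ES50 libraries (limma, adjusted p = 0.0192) and by voom (0.00713). Slc7a11, the cystine importer, averaged 10.3 ± 0.0901 FPKM in P-ES50 and 1.58 ± 0.107 FPKM in P, a rise of 2.13. It fell by 0.79 in P versus NC and by 1.49 in ES50 versus NC, and its difference of 0.17 in ES10 versus NC was not called in the main fit. Voom called Slc7a11 as higher there (adjusted p = 0.0167). Akr1b8, an aldo-keto reductase, rose by 2.13, 0.71 and 0.60 in P-ES50 versus P, P-ES10 versus P and ES10 versus NC. Gclm, a subunit of the enzyme that starts glutathione synthesis, rose by 1.14 in P-ES50 versus P and by 0.52 in P-ES10 versus P. Prdx1, a peroxiredoxin, was higher by 0.65 in P-ES50 versus P and at -0.25 when scaled to all reads, and on the FPKM scale it was higher by 0.66 in ES50 versus NC, where Hmox1 was lower.

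**Figure D3:**
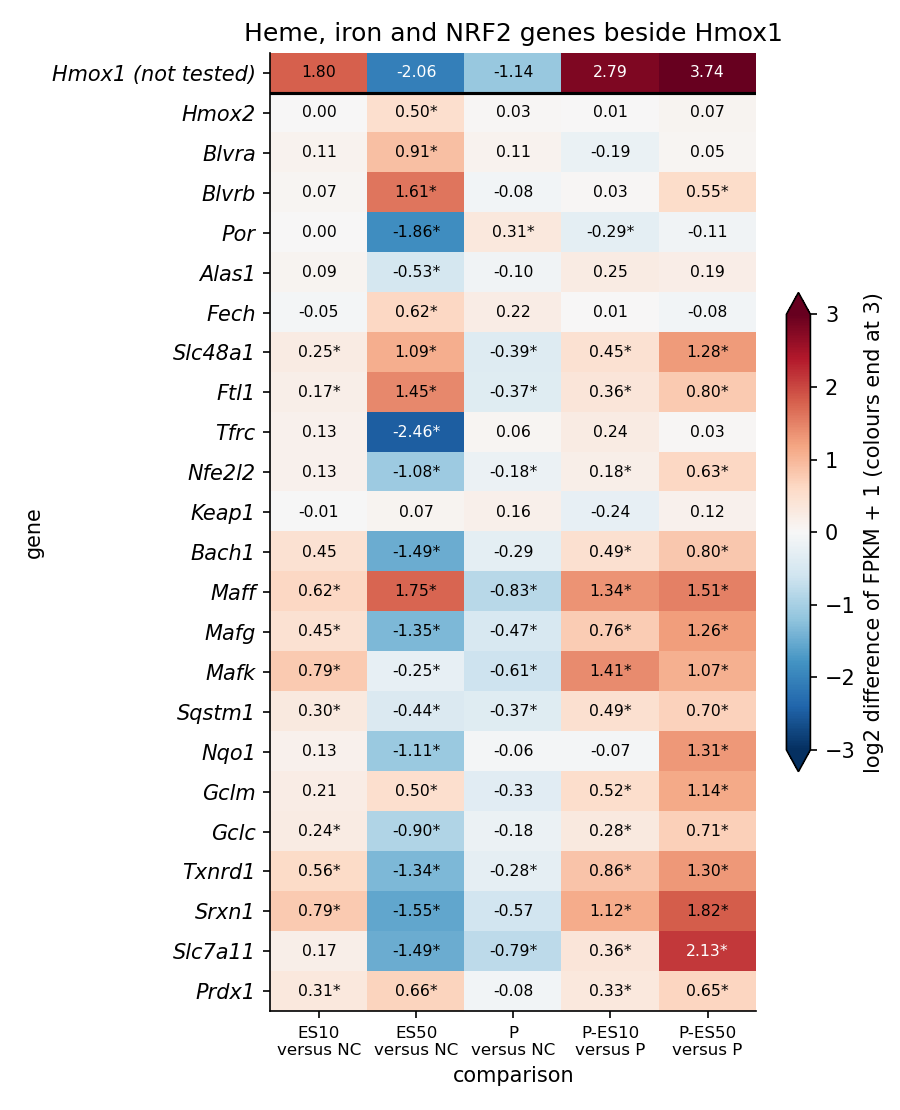
Log2 differences of FPKM + 1 for Hmox1 (top row, not tested) and 23 genes of heme, iron and NRF2 lists (rows) in 5 comparisons (columns). Stars mark an adjusted p under 0.05 in limma, and colours end at 3 in both directions. Small MAF genes, Srxn1 and Txnrd1 are higher after 10 pulses with PE and without PE, and Hmox2 stays within 0.07 of its control in each comparison but ES50 versus NC.

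Other factors known to act on the Hmox1 gene include AP-1, HIF1, ATF4 and heat shock factor, and 19 of that list were tested. In P-ES50 versus P 10 rose and 3 fell, where 14.1% and 14.2% of all genes did. Scaled to all reads 1 was higher and 14 lower, where 90 and 10461 of all 11917 genes were. Quantile normalization gave 6 lower, where 1870 of all genes were. In P-ES10 versus P 11 rose and 3 fell, where 13.2% and 9.66% of all genes did. In ES10 versus NC 9 rose and 1 fell, where 6.36% and 2.21% did, and the 9 became 5 without NC library 2 or 3 or ES10 library 1 or 2. In ES50 versus NC 4 rose and 12 fell, where 31.9% and 40.1% did. Scaled to all reads these were 0 and 19, where 34 of all genes were higher and 11471 lower. In P versus NC 2 rose and 8 fell, where 4.72% and 4.81% did, and the 2 became 0 when any 1 of the 6 libraries was left out. Fosl1, an AP-1 subunit, averaged 78.3 ± 2.76 FPKM in P, 208 ± 2.09 in P-ES10 and 157 ± 1.33 in P-ES50, with rises of 1.40 and 0.99 over P. The second was 0.10 and not called when scaled to all reads (limma, adjusted p = 0.281). It rose by 1.00 in ES10 versus NC and fell by 2.71 in ES50 versus NC. Fos, another AP-1 subunit, parted from Hmox1 after 50 pulses with PE. It rose by 2.32 in P-ES10 versus P and fell by 0.50 in P-ES50 versus P (adjusted p = 0.00504), with 5.63 ± 0.490 FPKM in P-ES50 and 8.38 ± 0.966 in P. Egr1, an immediate early factor, rose by 1.73 and 1.59 in those comparisons and fell by 1.02 in P versus NC. On the FPKM scale Fos and Egr1 also averaged higher in ES50 than in NC, where Hmox1 was lower. Fos averaged 28.2 ± 3.62 FPKM in ES50 and 19.3 ± 2.73 in NC, and Egr1 27.3 ± 5.44 and 14.8 ± 0.998. Hif1a rose by 0.41 in ES10 versus NC.

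Heat shock chaperones, a response often seen with Hmox1, were called in 8 of 12 tested genes as higher in P-ES50 versus P, in 9 as higher in P-ES10 versus P and in 8 as higher in ES10 versus NC, with none lower by limma. Of all genes, 14.1%, 13.2% and 6.36% rose in those comparisons. In P-ES50 versus P the 8 became 4 after quantile normalization, and 0 beside 11 lower when scaled to all reads. Of all 11917 tested genes, 1584 were higher after quantile normalization, and 90 were higher and 10461 lower when scaled to all reads. As lower, 1, 0 and 0 of the 12 chaperones passed an unadjusted p under 0.05 in those comparisons, and voom called 1, 0 and 0. Without P-ES50 library 3, limma called 1 as lower in P-ES50 versus P. Hspa1b, an inducible member of the HSP70 family, averaged 9.68 ± 0.928 FPKM in P-ES10 and 0.855 ± 0.0436 FPKM in P, a log2 rise of 2.52 (adjusted p = 1.27e-07), and rose by 1.40 in ES10 versus NC. In P-ES50, where Hmox1 was highest, the Hspa1b mean of 0.329 ± 0.239 FPKM was the lowest of the 6 groups. Its P-ES50 libraries stood at 0.253, 0.138 and 0.597 FPKM, below the 1 FPKM of the filter on low values. ES50 library 1, at 0.367 FPKM, lay within their range. Hsph1, an HSP110 chaperone, rose by 0.70 in P-ES10 versus P and by 0.48 in ES10 versus NC.

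For the difference between the response with PE and the response without PE, Hmox1 itself was not tested, and the genes around it were. For 10 pulses 3 of the 70 genes were called with a larger response with PE and none with a smaller, where 0.562% and 0.344% of all genes were. At an unadjusted p under 0.05 there were 5 with a smaller response, and voom called 4. The 3 genes were Maff (0.71), Mafk (0.62) and Txnrd1 (0.30), and the last was lost without NC library 1 (limma, adjusted p = 0.0508) or ES10 library 3 (0.0518). For 50 pulses 33 genes had a larger response with PE and 18 a smaller, where 31.1% and 27.9% of all genes did. Slc7a11 (3.61), Srxn1 (3.37), Txnrd1 (2.64), Mafg (2.61), Nqo1 (2.41) and Bach1 (2.29) had the same sign as the 5.80 of Hmox1. Blvrb (-1.05), Blvra (-0.86), Ncoa4 (-1.66) and Ftl1 (-0.66) had the other sign, and all 4 turned positive when scaled to all reads. On that scale 70 genes were larger and 0 smaller, where 10572 and 19 of all 11917 genes were. The difference of -0.43 for Hmox2 was not called (adjusted p = 0.0858), and without ES50 library 2 it was -0.66 and called (1.44e-04).

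**Figure D4:**
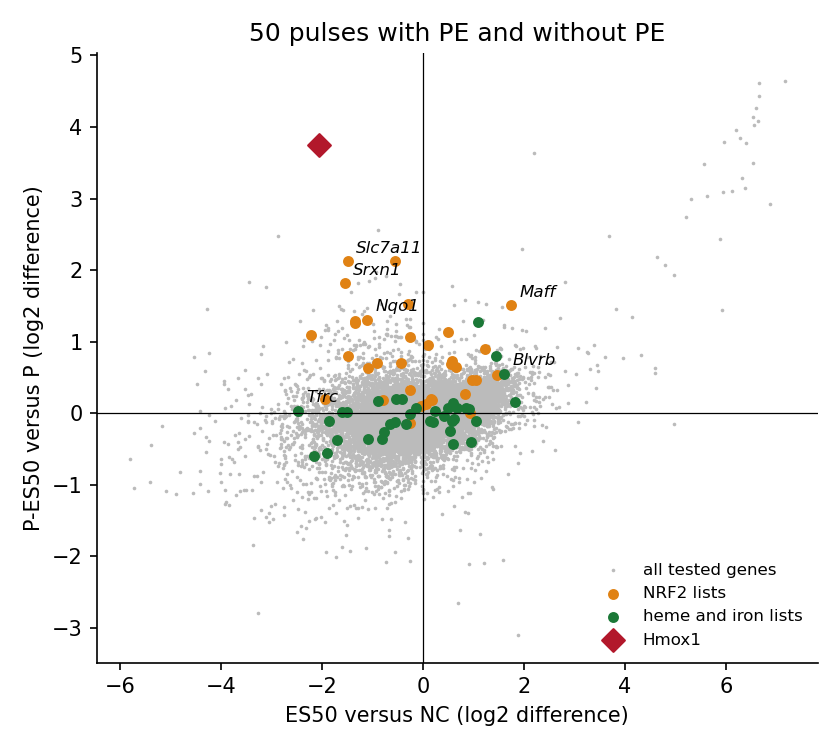
Log2 difference in P-ES50 versus P (vertical axis) against that in ES50 versus NC (horizontal axis) for 11917 tested genes (grey), with NRF2 lists (orange), heme and iron lists (green) and Hmox1 (red diamond). Hmox1 lies at -2.06 and 3.74, in the upper left, where 39 genes are lower by at least 1 without PE and higher by at least 1 with PE.

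That upper left region held 39 of 11917 genes at a size of 1 in each direction, and 2 genes at a size of 2, which were Hmox1 and Adm. Adm codes for adrenomedullin, a vasodilator peptide. It averaged 5.11 ± 0.426 FPKM in P, 25.6 ± 0.773 in P-ES10 and 32.8 ± 1.64 in P-ES50, against 12.1 ± 0.366 in NC, 29.0 ± 2.24 in ES10 and 0.803 ± 0.181 in ES50 (SD, n = 3 each).

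The genes most like Hmox1 in pattern were ranked by the Pearson correlation of log2(FPKM + 1) over 18 libraries, which share their 6 groups, so the coefficient is a description of group means. Of 10130 ranked genes, 56 passed 0.9. The 8 highest were Trim80 (0.979), Myc (0.969), Sqstm1 (0.968), Zfp36 (0.966), Ier3 (0.966), Srxn1 (0.963), Adm (0.963) and Txnrd1 (0.962). Sqstm1, Srxn1 and Txnrd1 belong to the NRF2 lists above. Myc is a growth factor response transcription factor, Zfp36 codes for tristetraprolin, which destabilises mRNAs, and Ier3 is an immediate early gene. Trim80 was low throughout, with 3.70 ± 0.657 FPKM in P-ES50 and 0.231 ± 0.0243 in P, and was listed at 0 in all ES50 libraries. Without the ES50 libraries the 5 highest over 15 libraries were Srxn1 (0.988), Txnrd1 (0.986), Hn1l (0.985), Pea15 (0.983) and Adm (0.983). Hn1l and Pea15 had coefficients of -0.18 and -0.48 over all 18. Both were highest in ES50, where Hmox1 was lowest. By distance between centred profiles, which also weighs size, the nearest were Adm (1.98), Dusp5 (3.17), Myc (3.26), Srxn1 (3.44) and Zfand2a (3.52). When scaled to all reads and after quantile normalization, Adm, Myc and Srxn1 were within the first 6 places by Pearson correlation. Trim80 moved from place 1 to places 86 and 176, Sqstm1 from 3 to 87 and 44, and Zfp36 from 4 to 44 and 8. Ier3 moved from 5 to 6 and 12, and Txnrd1 from 8 to 17 and 10.

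**Figure D5:**
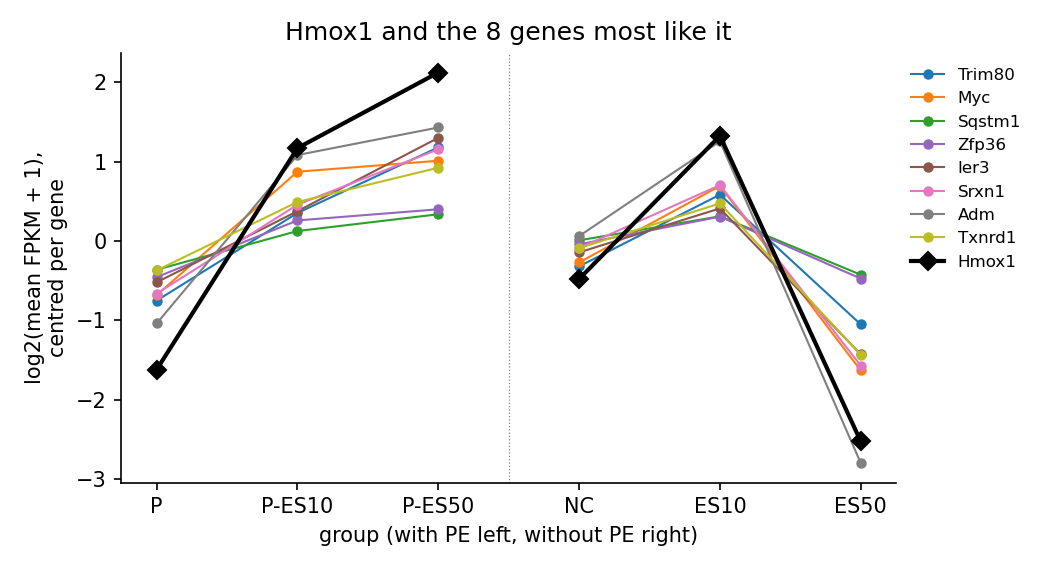
Group means as log2(mean FPKM + 1), centred per gene, for Hmox1 (black diamonds) and the 8 genes with the highest Pearson correlation over 18 libraries (coloured circles), with PE on the left and without PE on the right. All 9 genes have their highest group mean in P-ES50 and their lowest in ES50.

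Promoter windows were read to show the element through which NRF2 and BACH1 act. The RefSeq windows of the rat build GRCr8 run from 250 bases before to 50 bases after each gene's start, and Hmox1, Myc, Ier3 and Hn1l have none in that table. The core of the antioxidant response element was searched on both strands as TGACNNNGC. It was found in 3342 of 27457 windows, or 12.2%. Among NRF2 target enzymes 6 of 24 windows held it (Gstp1, Gclm, Prdx1, Gpx2, Me1 and Ugdh), among control genes 2 of 10 (Nfe2l2 and Mafk), and among the genes most like Hmox1 1 of 9 (Zfand2a). The AP-1 letters TGANTCA, which can overlap the element, were in 7.33% of all windows. They were in 5 of 24 windows of NRF2 target enzymes, 1 of 10 of control genes and 2 of 9 of the genes most like Hmox1 (Srxn1 and Zfand2a). A match is a description of letters and not a bound site. The stretches below come from 3 genes of the lists with values above and from Zfand2a, the gene among those most like Hmox1 that holds the core of the element. They run 5′ to 3′ on the gene's strand, with the element or its reverse complement in capitals.
Gclm, chr2:213031933-213032001, plus strand: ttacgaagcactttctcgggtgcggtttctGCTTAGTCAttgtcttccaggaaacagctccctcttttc
Prdx1, chr5:135383741-135383809, plus strand: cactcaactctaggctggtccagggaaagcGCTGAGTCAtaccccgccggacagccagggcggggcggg
Mafk, chr12:19959195-19959263, minus strand: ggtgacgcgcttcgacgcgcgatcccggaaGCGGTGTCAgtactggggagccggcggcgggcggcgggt
Zfand2a, chr12:20275200-20275244, plus strand: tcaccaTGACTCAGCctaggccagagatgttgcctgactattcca
The element began 172 bases before the start of Gclm, 135 before that of Prdx1, 41 before that of Mafk and 244 before that of Zfand2a. In Prdx1 and Zfand2a the capitals also hold the AP-1 letters.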

How the data were processed

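H9C2 poly(A) RNA was sequenced in 18 libraries, grouped and numbered by their sample labels. The authors deposited FPKM per gene, with gene positions and lengths per the file headers. The submitters' processing notes name the build Rnor 6.0. The aligner, counting tool and strandedness are not given in the sources. Reads recovered from FPKM times gene length summed to 14004929 to 17247201 per library.

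A gene was tested if it reached 1 FPKM in at least 3 libraries (11917 genes). The limma package (3.58.1, R 4.3.3) was fitted to log2(FPKM + 1) as 1 model of 6 group means with a mean-variance trend, and each of 7 contrasts had its own Benjamini-Hochberg adjustment. Differences on this scale understate the change of low genes. The fit was tested on simulated data. Alternatives were another pseudocount and filter, scaling to all reads, quantile normalization, a replicate block, no trend, only the groups compared, no ES50 libraries, and each library left out. Scaling to nuclear reads and voom on recovered reads were added after seeing the data. Sequences are from RefSeq (GRCr8), matched by symbol. Tables and figures were made in Python 3.11.15 with matplotlib 3.10.9.

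Hmox1, the gene lists and the tests were chosen with earlier results of these data known. The genes named are Hmox1, a set of 26 pathway genes, up to 3 called genes with the smallest adjusted p per list and comparison, and the genes most like Hmox1 by 3 measures. Ugt1a1, Flvcr1, Slc40a1, Pcbp1, Pgd, Abcc1 and Hspe1 were not analysed here. One further listed gene is counted in its list and is not reported here by itself.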

Additional observations from a re-analysis of the deposited data

Results flagged for a closer look

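After 50 pulses every P-ES50 library had more Hmox1 than every P library, while every ES50 library had less than every NC library. The 2 responses were 5.80 apart on the log2 scale, and that difference was not tested, since the gene was chosen by it.

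The response to 10 pulses differed with PE, by an interaction term in limma, for Fos (1.64), Egr1 (1.18), Maff (0.71), Mafk (0.62) and Txnrd1 (0.30), all with the larger value with PE. The response to 50 pulses differed by the same test for Fosl1 (3.70), Slc7a11 (3.61), Srxn1 (3.37), Txnrd1 (2.64), Mafg (2.61), Tfrc (2.50), Nqo1 (2.41), Bach1 (2.29), Por (1.75) and Nfe2l2 (1.71), with the larger value with PE. It differed with the smaller value with PE for Ncoa4 (-1.66), Blvrb (-1.05), Blvra (-0.86) and Ftl1 (-0.66), and these 4 were positive when scaled to all reads. Of all 11917 tested genes, 31.1% were called with a larger response to 50 pulses with PE and 27.9% with a smaller. Scaled to all reads, 10572 were larger and 19 smaller. For 10 pulses the shares on the FPKM scale were 0.562% and 0.344%. ES50 libraries held 91.4% to 92.9% mitochondrial reads, and the part of this in the differences was not tested.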

How the results depend on the processing

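The Hmox1 differences kept their direction under every alternative run. Scaling to all reads gave -5.50 in ES50 versus NC, -1.03 in P versus NC, 2.70 in P-ES10 versus P and 2.85 in P-ES50 versus P, and quantile normalization gave -2.51, -1.21, 2.95 and 3.63. Scaling to nuclear reads gave 2.72 in P-ES10 versus P. Of the 70 heme, iron and NRF2 genes, counts are given as higher and lower. Scaling to all reads gave 3 lower in ES10 versus NC, 0 and 70 in ES50 versus NC, 16 higher in P versus NC, 16 lower in P-ES10 versus P, 11 and 54 in P-ES50 versus P, 1 lower for the interaction with 10 pulses, and 70 and 0 for that with 50 pulses. Fits with only the groups compared, without the ES50 libraries, and with voom gave 20, 23 and 25 higher and 4, 3 and 4 lower in ES10 versus NC, 7, 8 and 8 higher in P versus NC, 16, 14 and 15 lower in P-ES10 versus P, 8, 10 and 8 lower in P-ES50 versus P, and 7, 7 and 8 larger and 4, 4 and 4 smaller for the interaction with 10 pulses. Over all tested genes these fits also called more than the main fit. They gave 1525, 1699 and 1890 higher in ES10 versus NC (758 in the main fit) and 721, 875 and 944 lower (263). In P versus NC they gave 1420, 1641 and 1811 higher (563). Lower were 2223, 2218 and 2419 in P-ES10 versus P (1151) and 2181, 2805 and 2616 in P-ES50 versus P (1691). For the interaction with 10 pulses 324, 275 and 365 were larger (67) and 369, 286 and 423 smaller (41). Of the 70 genes, scaling to nuclear reads gave 2 lower in ES10 versus NC and 9 lower in P-ES10 versus P, and quantile normalization gave 9 lower there and 4 higher in P versus NC. A pseudocount of 0.1, no filter and no trend each gave 1 higher in P versus NC, and no filter gave 3 lower in P-ES50 versus P. Leaving out 1 library gave 1 to 1 higher in P versus NC and 2 to 4 lower in P-ES50 versus P. The cause was not tested.

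Scaling to all reads reversed genes in ES50 versus NC, at -2.47 for Hmox2, -2.19 for Blvra, -1.86 for Blvrb, -1.55 for Ncoa4, -2.09 for Ftl1, -2.37 for Slc48a1 and -1.67 for Maff. In P-ES50 versus P it gave -0.25 for Prdx1, -0.10 for Ftl1, -0.33 for Blvrb, -0.25 for Nfe2l2 and -0.20 for Sqstm1, and for the uncalled Hmox2, Blvra and Tfrc -0.76, -0.79 and -0.83. For the interaction with 50 pulses it gave 1.53 for Blvrb, 1.41 for Blvra, 0.85 for Ncoa4, 1.99 for Ftl1 and 1.71 for Hmox2. Quantile normalization reversed Ftl1, at -0.17 in ES50 versus NC and 0.41 for that interaction.

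Replicate numbers did not pair the libraries. Residuals of same-numbered libraries correlated at -0.0879 to 0.101, and with the number as a replicate block 13 genes rose in ES10 versus NC and 30 rose and 4 fell in P-ES50 versus P. Of 133 gene differences the text gives, the block ended 1 call, that of Ftl1 in ES10 versus NC (adjusted p = 0.0508). Few nuclear reads limit the ES50 values.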
